A study of Mus musculus with 8 samples.

Results

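The lysosome and autophagy genes examined here are 39 protein-coding genes of lysosomal degradation and of its delivery routes, found by gene name in a table of 54532 genes counted in mouse cortex. All 39 were in the table, with 129 to 30612 counts per mouse, and all were among the 17195 genes that passed the filter on low counts. Bulk RNA was sequenced from PS19 mice and from Adrb1-A187V;PS19 mice, 4 per genotype, with 1 library per mouse and 14653222 to 21223754 counts per library. In PS19 mice the mouse prion protein promoter drives human tau with the P301S mutation. Adrb1-A187V;PS19 mice have this transgene too, together with 1 A187V allele at the mouse gene of the β1-adrenergic receptor, so that tau is present in both groups and no group without it was compared. All 8 mice were C57BL/6 animals of 8 months that were housed singly. In the order used throughout, the PS19 mice were m677, m668, m665 and m659, and the Adrb1-A187V;PS19 mice were m671, m661, m660 and m658. Which litter each mouse came from was not given in the sources used here. Adrb1 itself had a log2 fold change of -0.07 ± 0.09 (SE) in Adrb1-A187V;PS19 vs. PS19 mice, and counts per gene do not show the mutated base.

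Lysosomes are acidic organelles in which proteins, lipids and glycans are broken down by hydrolases. The vacuolar proton pump (V-ATPase) acidifies them, and membrane proteins such as LAMP1 and LAMP2 line them. Autophagy delivers cytoplasmic cargo, including protein aggregates, to lysosomes inside vesicles coated with LC3. TFEB and TFE3 are transcription factors that activate many of these genes through short E-box sequences in their promoters, and several of the genes are known for inherited storage or neurodegenerative diseases. The question here was whether this set, which bears on the clearance of tau, differed between the genotypes in the cortex.

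The promoters of 4 of the genes are shown because they bear on regulation by TFEB and TFE3. The capitals mark CACGTG, the core of the E-box, and each run is the 250 bases before the RefSeq start on the gene's strand (GRCm38.p6). Lamp1 (chr8:13158911-13159160, plus strand) held CACGTG 4 times, with first bases 61, 45, 28 and 15 bases before the start. Tfeb (chr17:47736787-47737036, plus strand, its most upstream listed start) is the factor itself. Ctss (chr3:95526536-95526785, plus strand) and Ctsz (chr2:174439040-174439289, minus strand) were among the genes that varied most between mice. The letters CACGTG were in none of these 3 windows.
Lamp1: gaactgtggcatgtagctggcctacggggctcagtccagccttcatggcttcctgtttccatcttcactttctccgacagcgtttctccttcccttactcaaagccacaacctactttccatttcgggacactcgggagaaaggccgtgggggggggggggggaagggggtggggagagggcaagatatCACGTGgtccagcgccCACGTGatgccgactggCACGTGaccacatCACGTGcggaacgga
Tfeb: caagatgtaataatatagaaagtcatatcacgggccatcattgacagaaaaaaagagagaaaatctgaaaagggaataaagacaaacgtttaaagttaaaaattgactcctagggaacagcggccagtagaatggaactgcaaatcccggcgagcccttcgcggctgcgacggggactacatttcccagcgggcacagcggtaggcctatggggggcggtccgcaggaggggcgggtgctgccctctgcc
Ctss: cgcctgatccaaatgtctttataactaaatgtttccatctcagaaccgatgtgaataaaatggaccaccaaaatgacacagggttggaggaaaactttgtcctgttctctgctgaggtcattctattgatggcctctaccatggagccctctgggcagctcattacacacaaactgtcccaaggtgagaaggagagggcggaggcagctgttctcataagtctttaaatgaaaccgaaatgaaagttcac
Ctsz: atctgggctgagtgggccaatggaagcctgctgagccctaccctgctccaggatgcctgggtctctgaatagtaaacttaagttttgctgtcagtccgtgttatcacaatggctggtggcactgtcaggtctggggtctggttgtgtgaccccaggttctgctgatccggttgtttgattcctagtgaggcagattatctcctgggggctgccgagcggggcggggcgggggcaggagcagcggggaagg
RefSeq promoters were matched for 33 of the 39 genes, as 39 windows of 300 bases that run from 250 bases before to 50 bases after a start. Ctsb, Npc1, Asah1, Atp6v1h, Map1lc3a and Becn1 were not matched. CACGTG, which reads the same on both strands, was in 14 of these windows (35.9%), compared with 7.15% of all promoters of that length in the table. It was in 17.5% of 103 promoters of other lysosome and autophagy genes. TCACGTGA, which contains CACGTG, was in 7 windows (17.9%), compared with 0.974% of all promoters and 5.83% of those 103 promoters. Genes with CACGTG included Lamp1, Ctsd, Mcoln1, Atp6v1a, Atg5 and Atg7, and genes without it included Tfeb, Tfe3, Grn, Psap and Sqstm1. These are matches of letters in a window, and binding was not measured here.

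No difference between Adrb1-A187V;PS19 and PS19 mice passed the test for any of the 39 genes. With edgeR's quasi-likelihood test, 0 genes were higher and 0 were lower at an unadjusted p-value under 0.05, a threshold that 2.8% of all genes tested passed, 1.42% as higher and 1.37% as lower. With DESeq2 and with limma-voom the counts were also 0. After Benjamini-Hochberg adjustment over all genes 0 of the 39 passed, and the background was 0% as well. The smallest unadjusted p-values were those of Cln3 (0.126) and Tpp1 (0.131) from edgeR, and every adjusted p-value was 0.9996. The log2 fold changes ran from -0.19 for Cln3 to 0.13 for Tpp1, with a median of 0.01, compared with a median of 0.00 over all genes. Of the 39 values 26 were above 0 and 13 were below, and 49.8% of all genes were below 0. The median size of a log2 fold change was 0.04 among these genes and 0.07 among all genes, and the median SE was 0.07 and 0.11. Genes were not matched for counts in this comparison. The 95% intervals of all 39 genes lay between -0.59 and 0.55, and the widest was that of Ctss.

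**Figure D1:**
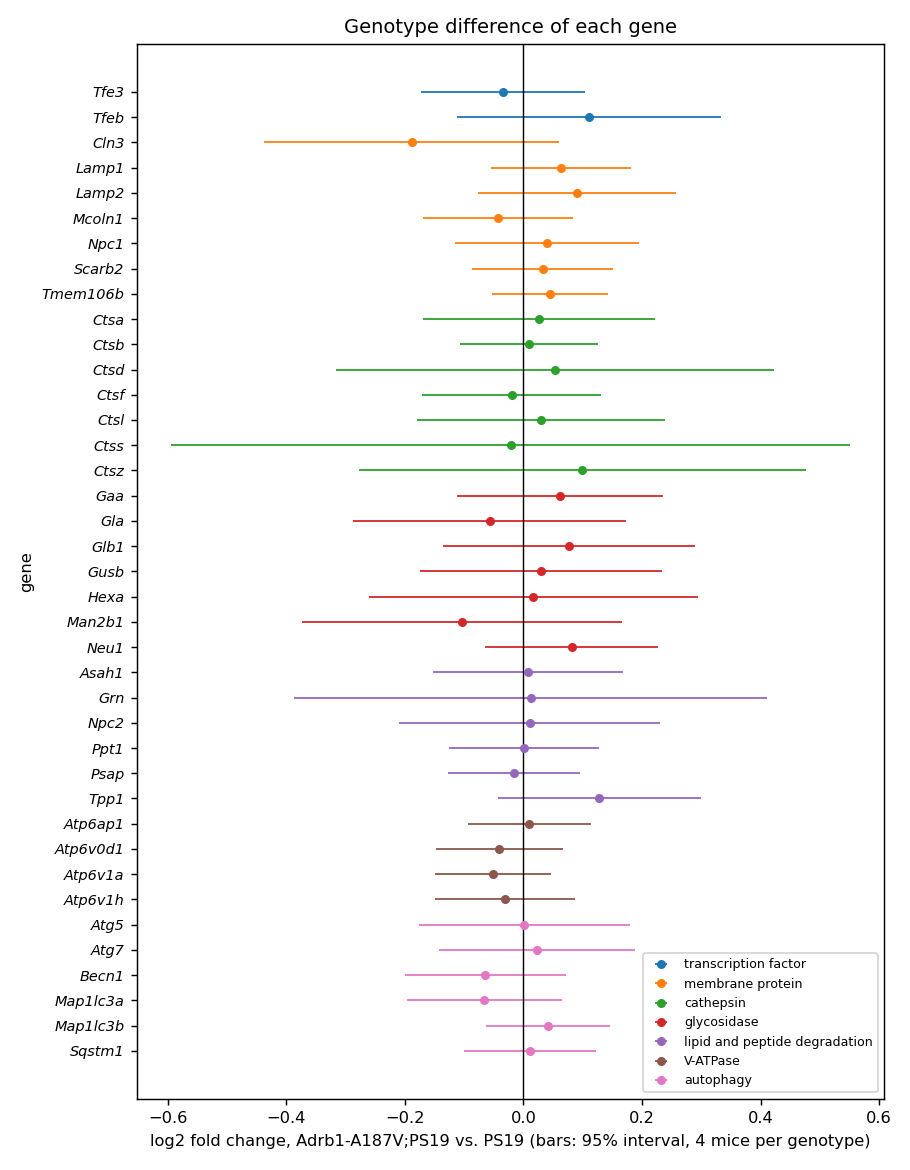
Log2 fold change of each of the 39 genes in Adrb1-A187V;PS19 vs. PS19 mice (horizontal axis) from edgeR, with points for estimates, bars for 95% intervals (4 mice per genotype) and colours for roles. Every interval includes 0, and the estimates run from -0.19 (Cln3) to 0.13 (Tpp1).

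Levels of different genes were compared as counts scaled to a common library size (CPM) divided by the deposited gene length in units of 1000 bases (RPKM). Psap, which encodes the precursor of the saposins that help to degrade sphingolipids, had the highest mean at 546.5 RPKM. It was followed by the autophagy receptor gene Sqstm1 (133.8), the LC3 gene Map1lc3a (126.9), the proton pump gene Atp6v0d1 (111.6), Lamp1 (111.0) and the aspartyl protease gene Ctsd (102.8). Tfeb was the least abundant at 1.66 RPKM, followed by Cln3 (2.23), the β-glucuronidase gene Gusb (3.90) and Tfe3 (4.02). Map1lc3b, the other LC3 gene here, had 25.5 RPKM. Neighbours in this order overlapped over the mice in places: Atp6v0d1 ranged from 104.8 to 118.0 RPKM, Lamp1 from 101.8 to 116.6 and Ctsd from 75.7 to 127.5.

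Of the transcription factors, Tfeb was the only one of the 39 genes whose mice did not overlap between genotypes. Its levels in PS19 mice were 8.88, 8.90, 9.16 and 9.16 CPM, and in Adrb1-A187V;PS19 mice 9.60, 9.53, 10.5 and 9.34 CPM. Every Adrb1-A187V;PS19 mouse was above every PS19 mouse, by a narrow margin between 9.16 and 9.34 CPM. Such an arrangement was found for 2.02% of all genes, with 1.02% of all genes higher, so 1 of 39 genes was close to the background. The means were 9.02 ± 0.153 and 9.75 ± 0.529 CPM (SD, n = 4 each), and an exact two-sided permutation test gave p = 0.0286, the smallest value that 4 against 4 mice allow. In edgeR the log2 fold change was 0.11 ± 0.10 (SE) with an unadjusted p of 0.304. The counts behind these values were 129 to 199 per mouse, the lowest of the set. Tfe3, a close relative of Tfeb, had 36.01, 36.8, 41.0 and 36.7 CPM in PS19 mice and 37.3, 36.1, 38.0 and 35.8 CPM in Adrb1-A187V;PS19 mice. Its groups overlapped, with a log2 fold change of -0.03 ± 0.06 (SE).

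**Figure D2:**
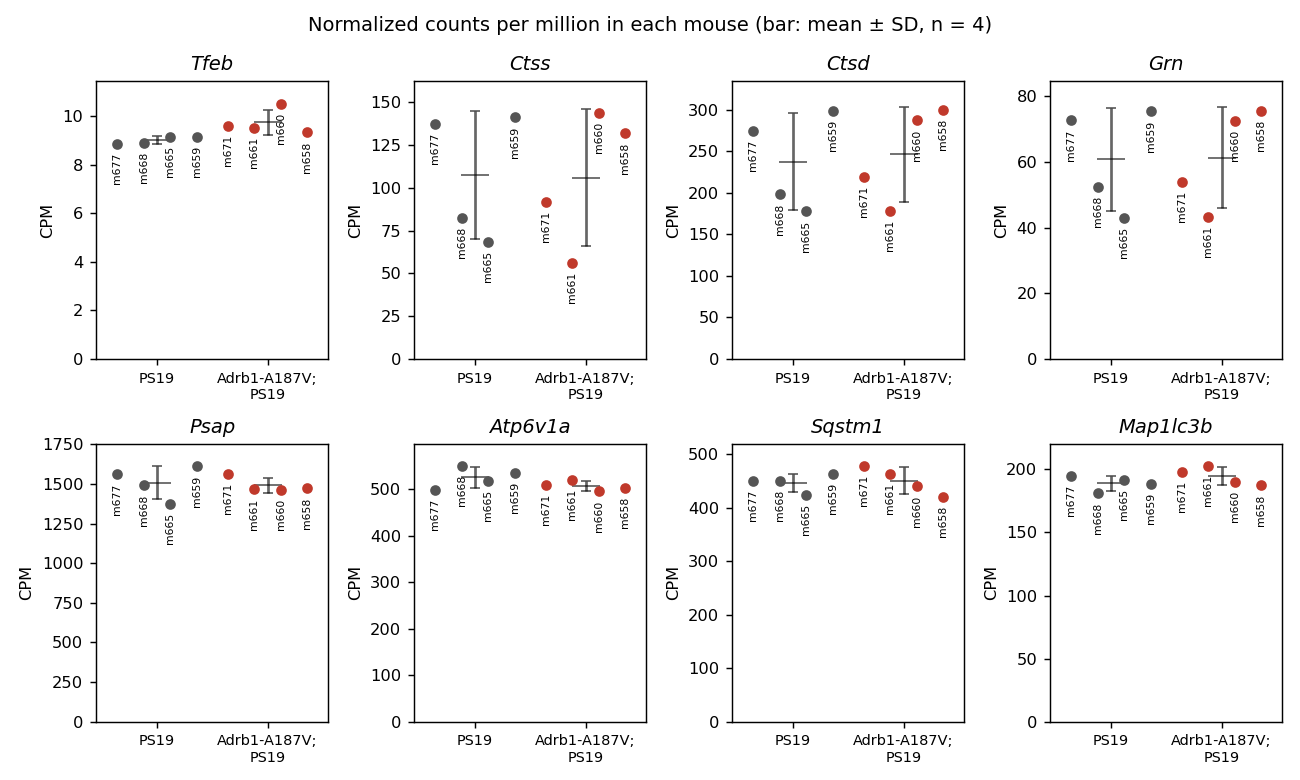
CPM of 8 genes in each mouse (points, labelled by mouse, vertical axes from 0), with the mean and SD of each genotype (n = 4). Tfeb shows no overlap between genotypes (up to 9.16 against 9.34 CPM and above), whereas Ctss, Ctsd and Grn range widely within both genotypes and Psap, Atp6v1a, Sqstm1 and Map1lc3b narrowly.

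The membrane proteins were 7 genes, with log2 fold changes from -0.19 to 0.09. Lamp1, which encodes a major glycoprotein of the lysosomal membrane, had 302, 272, 276 and 311 CPM in PS19 mice and 306, 288, 307 and 312 CPM in Adrb1-A187V;PS19 mice (log2 fold change 0.06 ± 0.05, SE). Lamp2, whose splice forms serve chaperone-mediated autophagy among other roles, had 92.5, 79.7, 87.6 and 93.4 CPM against 88.8, 82.6, 101 and 104 CPM (0.09 ± 0.08). Both genes overlapped between genotypes. Npc1, which exports cholesterol from lysosomes, had 73.5, 62.3, 81.0 and 71.7 CPM against 76.0, 71.2, 77.4 and 72.3 CPM. Mcoln1, a calcium channel of the lysosomal membrane, had 64.8, 57.0, 65.2 and 63.3 CPM against 59.1, 63.7, 60.8 and 59.4 CPM. For both genes the PS19 mice spanned the wider range. Tmem106b, a lysosomal membrane protein linked to the risk of frontotemporal dementia, had 216, 213, 226 and 211 CPM against 223, 217, 226 and 225 CPM. It was the steadiest of the 39 genes, with a coefficient of variation of 2.87% over the 8 mice. Scarb2, a receptor that carries glucocerebrosidase to lysosomes, ranged from 158 to 184 CPM. Cln3, mutated in juvenile Batten disease, ranged from 12.3 to 15.2 CPM in PS19 mice and from 10.6 to 13.6 CPM in Adrb1-A187V;PS19 mice, with a log2 fold change of -0.19 ± 0.12 (SE, edgeR unadjusted p = 0.126).

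The 7 cathepsin genes, which encode lysosomal proteases, had a wider range within each genotype than the difference between the means of the genotypes. Ctss, a cysteine protease abundant in microglia, had 137, 82.6, 68.6 and 141 CPM in PS19 mice and 92.0, 56.0, 144 and 132 CPM in Adrb1-A187V;PS19 mice. In each genotype 2 mice were high and 2 were low, and the means were 107 ± 37.3 and 106 ± 39.9 CPM (SD, n = 4 each). Its log2 fold change was -0.02 ± 0.27 (SE), so a change of up to 0.55 in either direction was within the interval. Ctsd, the main aspartyl protease of lysosomes, had 275, 198, 178 and 299 CPM against 219, 179, 287 and 299.8 CPM. The same mice were high and low as for Ctss, and the log2 fold change was 0.05 ± 0.17 (SE). Ctsz, an exopeptidase, had 61.1, 40.2, 45.4 and 68.8 CPM against 48.8, 43.2, 71.6 and 67.7 CPM. Ctsb, the most abundant cathepsin in CPM, had 607, 552, 567 and 634 CPM against 602, 555, 616 and 603 CPM. Its range was narrow, but m677, m659, m660 and m658 again held the 4 highest values. The means of the other genes were 88.0 and 89.6 CPM for Ctsa, 83.2 and 85.0 CPM for Ctsl, and 45.9 and 45.3 CPM for Ctsf, in PS19 and Adrb1-A187V;PS19 mice. The log2 fold changes of the 7 genes ran from -0.02 to 0.10.

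The 7 glycosidase genes encode enzymes that remove sugars from glycolipids, glycogen and glycoproteins. Hexa, the α subunit of β-hexosaminidase that is mutated in Tay-Sachs disease, had 67.1, 54.7, 47.3 and 68.2 CPM in PS19 mice and 54.2, 49.3, 73.5 and 62.9 CPM in Adrb1-A187V;PS19 mice (log2 fold change 0.02 ± 0.13, SE). The mice that were high for the cathepsins were also high for Hexa. Man2b1, the lysosomal α-mannosidase, ranged from 42.3 to 66.3 CPM and had a log2 fold change of -0.10 ± 0.13 (SE). Gaa, the acid α-glucosidase that degrades glycogen, was the most abundant of the group and ranged from 279 to 378 CPM. The values of Gla, Glb1, Gusb and Neu1 overlapped between genotypes, with log2 fold changes from -0.06 to 0.08.

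The 6 genes of lipid and peptide degradation included the most abundant of the set. Psap had 1559.6, 1490.1, 1372 and 1611 CPM in PS19 mice and 1564, 1466, 1463 and 1472 CPM in Adrb1-A187V;PS19 mice, with a log2 fold change of -0.02 ± 0.05 (SE). Grn, the progranulin gene whose loss causes frontotemporal dementia or a neuronal storage disease, had 72.6, 52.5, 42.9 and 75.3 CPM against 53.9, 43.3, 72.5 and 75.5 CPM. Psap stayed in a narrow range in both genotypes, whereas Grn was high in m677, m659, m660 and m658 and low in the other mice. The means of Grn were 60.8 ± 15.7 and 61.3 ± 15.3 CPM (SD, n = 4 each). Tpp1, a peptidase mutated in late infantile Batten disease, ranged from 64.5 to 77.3 CPM in PS19 mice and from 67.7 to 84.8 CPM in Adrb1-A187V;PS19 mice. Its log2 fold change of 0.13 ± 0.08 (SE) was the highest of the set, and with m677 or m671 left out the value was 0.18 in both cases, with unadjusted p-values of 0.0459 and 0.0410 from edgeR. Npc2, the soluble partner of NPC1, Ppt1, a thioesterase that removes fatty acids from proteins, and Asah1, the acid ceramidase, had log2 fold changes from 0.00 to 0.01.

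The V-ATPase genes were level across mice. Atp6v1a, the catalytic subunit of the pump, had 499, 551, 518 and 535 CPM in PS19 mice and 509.9, 521, 496 and 502 CPM in Adrb1-A187V;PS19 mice. Atp6v1h, a regulatory subunit, had 161, 175, 168 and 175 CPM against 179.8, 165, 157 and 164 CPM. Both overlapped between genotypes. Log2 fold changes of the 4 genes, which include Atp6v0d1 and the accessory subunit gene Atp6ap1, ran from -0.05 to 0.01, and their 95% intervals lay between -0.15 and 0.11.

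The 6 autophagy genes were also narrow, with 95% intervals between -0.20 and 0.19. Sqstm1, which encodes the cargo receptor p62, had 451, 451, 424 and 464 CPM in PS19 mice and 479, 464, 440.4 and 421 CPM in Adrb1-A187V;PS19 mice. Map1lc3a had 152, 154, 152 and 155 CPM against 164, 147, 136 and 138 CPM, and Map1lc3b had 195, 181, 192 and 189 CPM against 198, 203, 190.0 and 187.2 CPM. The PS19 mice were close together for Map1lc3a and the Adrb1-A187V;PS19 mice lay on both sides of them, with a log2 fold change of -0.07 ± 0.06 (SE). With m671, its highest mouse (164 CPM), left out its value was -0.13, with an unadjusted p of 0.0294 from edgeR. This was 1 of the 3 fits under 0.05 among 312 with 1 mouse left out. Becn1, a component of the kinase complex that starts autophagosome formation, had 64.8, 77.3, 76.4 and 68.2 CPM against 69.6, 67.0, 68.5 and 69.3 CPM. The Adrb1-A187V;PS19 mice lay within the range of the PS19 mice. Atg5, which forms part of the conjugate that attaches LC3 to membranes, had 20.9, 21.7, 21.4 and 21.9 CPM against 21.2, 18.9, 23.4 and 22.6 CPM. Atg7, the enzyme that activates LC3 for this step, had 26.9, 30.3, 29.2 and 26.1 CPM against 28.3, 31.0, 28.4 and 26.4 CPM. Both overlapped, with log2 fold changes of 0.00 ± 0.08 and 0.02 ± 0.08 (SE).

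For 10 of the 39 genes another gene overlaps the same span and had counts above 10% of the gene's own. These were Ppt1 (270%), Grn (200%), Ctsz (63.4%), Map1lc3b (53.8%), Ctsa (47.8%), Glb1 (47.8%), Npc1 (32.1%), Atp6v1h (20.9%), Ctsb (13.7%) and Cln3 (10.1%). The strand setting of the counting was not given in the sources used here, so the split of reads within these pairs is uncertain.

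The genes differed in how much they varied between mice whatever the genotype. The median coefficient of variation over the 8 mice was 6.36%, compared with 10.5% over all genes tested, and 10 of the 39 genes were above that value. This comparison was not matched for counts. The 39 genes had at least 129 counts per mouse, whereas all genes tested include genes with far fewer. The highest were Ctss (33.5%), Grn (23.6%), Ctsz (22.9%), Ctsd (22.2%), Hexa (16.1%) and Man2b1 (15.5%). The V-ATPase genes lay between 3.42% and 4.80%, and the autophagy genes between 3.54% and 6.33%. Of the genes named as highest, Ctsd had CACGTG in its promoter window, and Ctss, Grn, Ctsz, Hexa and Man2b1 did not. Of the V-ATPase and autophagy genes with a matched promoter, Atp6v0d1, Atp6v1a, Atg5 and Atg7 had it, and Atp6ap1, Sqstm1 and Map1lc3b did not. A relation of these letters to the variation between mice was not tested.

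**Figure D3:**
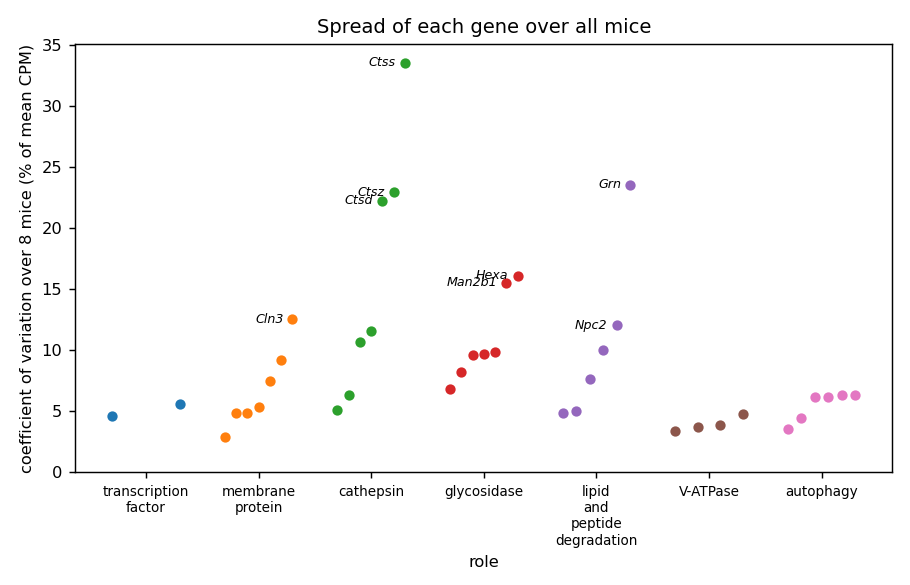
Coefficient of variation of CPM over all 8 mice (vertical axis, percent) for each of the 39 genes (points), grouped by role. Ctss (33.5%), Grn (23.6%), Ctsz (22.9%) and Ctsd (22.2%) stand above the other genes, and the V-ATPase genes stay between 3.42% and 4.80%.

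The same mice were high for many of the variable genes. For 13 of the 39 genes (33.3%) the 4 highest mice were m677 and m659, both PS19, and m660 and m658, both Adrb1-A187V;PS19. This set of mice was noticed after the values were seen. It was the top set for 3.84% of all genes tested and for 6.96% of 115 other lysosome and autophagy genes. The 13 genes were 6 of the 7 cathepsins, all but Ctsf, with Lamp2, Scarb2, Hexa, Man2b1, Npc2, Grn and Tpp1. None of the V-ATPase or autophagy genes had this order, and for 0 of the 39 genes these mice were the 4 lowest, compared with 2.68% of all genes. The same 4 mice also lay on the negative side of the first principal component of all genes, from -16.8 to -15.0, with the other mice at 8.75 to 23.1. Averaged over the 39 genes, the log2 CPM relative to each gene's mean was 0.06, -0.08, -0.08 and 0.08 in the PS19 mice and -0.01, -0.11, 0.09 and 0.05 in the Adrb1-A187V;PS19 mice. For the cathepsins alone these values reached from -0.28 to 0.22, whereas for the V-ATPase and the autophagy genes they stayed between -0.05 and 0.05. The median correlation between pairs of the 39 genes over the mice was r = 0.106, compared with -0.00056 for 5000 sampled genes, and it ranged from 0.0587 to 0.191 with 1 mouse left out. These pairs share libraries and depth, and the values are descriptive.

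**Figure D4:**
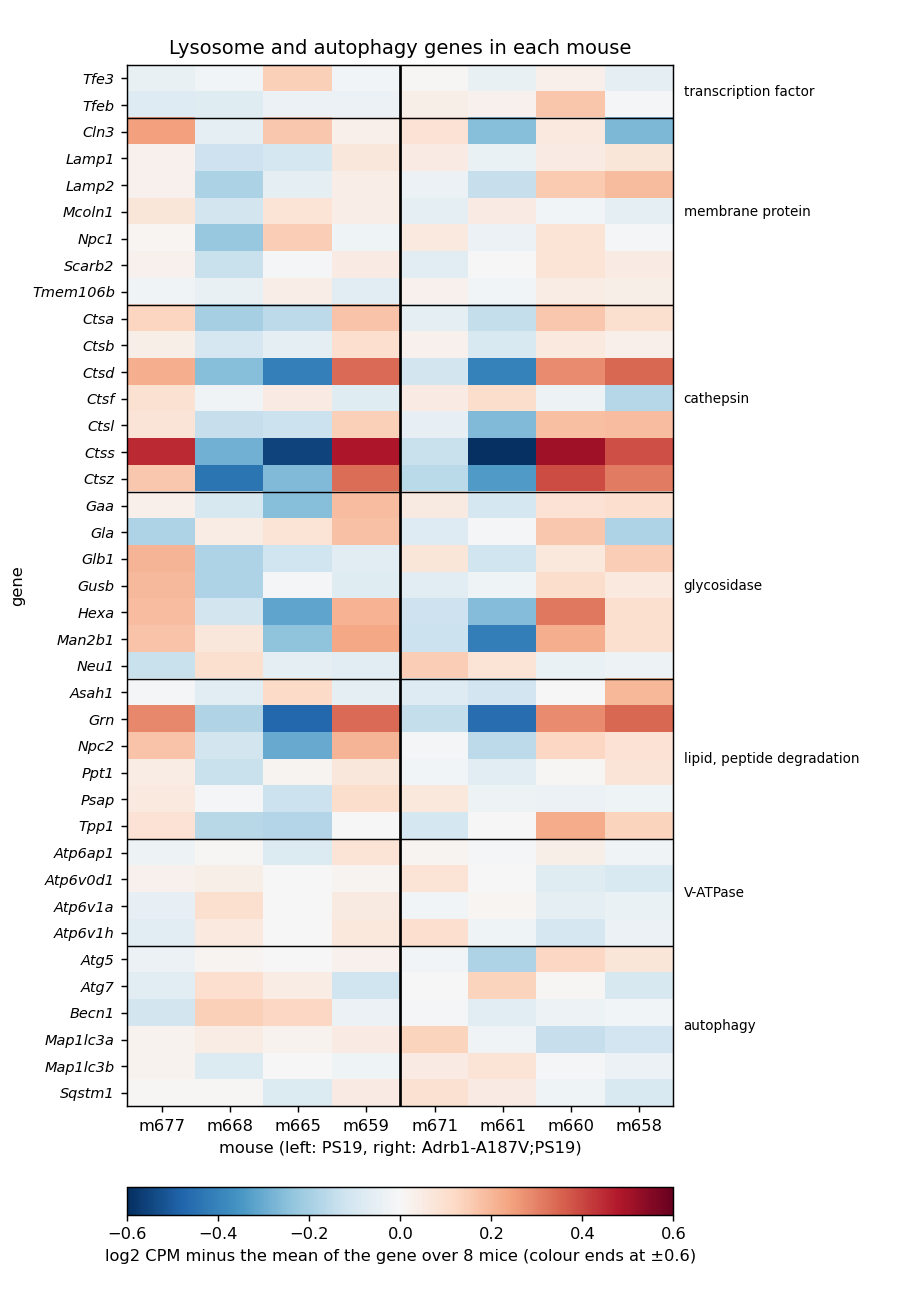
Log2 CPM of each of the 39 genes minus its mean over 8 mice (colour, ending at ±0.6), with genes in rows by role and mice in columns, PS19 left and Adrb1-A187V;PS19 right. Ctss, Ctsd, Ctsz, Grn, Hexa and Man2b1 are red in m677, m659, m660 and m658 and mostly blue in the other mice, while the V-ATPase and autophagy rows stay pale.

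Markers of cell types varied over the same mice. The summed level of 7 microglial markers (Cx3cr1, P2ry12, Tmem119, Csf1r, C1qa, C1qb and Aif1) was 455.9, 342.9, 298.9 and 522.8 CPM in PS19 mice and 373.9, 289.2, 503.5 and 485.9 CPM in Adrb1-A187V;PS19 mice. The sum was high in the same mice as the cathepsins, but of its markers only Cx3cr1, Csf1r, C1qa and C1qb had m677, m659, m660 and m658 as the 4 highest mice. P2ry12, Tmem119 and Aif1 did not, and Tmem119 was lower in m660 (20.5 CPM) than in m668 (22.8) and m671 (23.4). P2ry12, Tmem119 and Aif1 reached at most 41.9, 26.9 and 8.17 CPM, so the sum rests mostly on the other markers. Between genotypes 0 of the 7 markers passed an unadjusted p of 0.05 in edgeR, and none was at 0. The 6 markers of activated microglia summed to 102.1 to 116.2 CPM in m677, m659, m660 and m658 and to 38.1 to 59.5 CPM in the other mice, and all 6 had this order. The 5 astrocyte markers summed to 2343 to 2499 CPM and to 1586 to 1870 CPM in the same split, of which Gfap made up 748 to 838 and 182 to 354 CPM. Of these markers Gfap and Aqp4 had this order, whereas Slc1a3, Aldoc and Aldh1l1 did not, and Aldh1l1 was highest in m661 (68.5 CPM) and m671 (65.3 CPM). Markers of oligodendrocytes (4198 to 5600 CPM) and neurons (5141 to 5970 CPM) had no gap of this kind. Between genotypes 0 of the 6 activated microglial and 0 of the 5 astrocyte markers passed the unadjusted threshold, and of the 5 neuronal markers Slc17a7 was lower in Adrb1-A187V;PS19 mice (log2 fold change -0.19 ± 0.07, SE, edgeR unadjusted p = 0.0217). Its genotypes overlapped, its adjusted p-value from edgeR was 0.9996, and 1.37% of all genes were lower at the unadjusted threshold. The other neuronal markers had log2 fold changes from -0.05 (Snap25) to 0.06 (Gad1). In bulk tissue, fewer cells of a type and less RNA per cell cannot be told apart.

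Over the 8 mice, 11 of the 39 genes correlated positively with the summed microglial markers. The same relation was not computed over all genes tested, so no background share stands beside this count. A relation particular to the lysosome and autophagy genes is therefore not shown. Pearson's r was taken between log2 CPM of each gene and log2 of the marker sum. Its exact permutation p-values over 40320 pairings were adjusted by Benjamini-Hochberg over 117 relations (39 genes against microglial, oligodendrocyte and neuronal markers). The 11 genes had adjusted values between 0.0116 and 0.0467. They were Ctsd, Grn, Ctss, Ctsl, Hexa, Ctsa, Npc2, Ctsz, Man2b1, Ctsb and Gaa, with r from 0.901 to 0.991. Ctsd had r = 0.991 (rho = 0.905) and Ctss r = 0.983 (rho = 0.952). With m661 and m665 left out, the mice farthest from the median of the markers, r of the 11 genes ranged from 0.752 to 0.985, and with each genotype centred on its own mean from 0.904 to 0.992. By Spearman's rho 0 of the 39 genes passed after adjustment (smallest adjusted exact permutation p = 0.0667), and 14 passed unadjusted. At the other end were Atg7 (r = -0.853, adjusted exact permutation p = 0.0972) and Ctsf (r = -0.622). With oligodendrocyte and neuronal markers 0 genes passed after adjustment by Pearson or Spearman, and 2 and 13 passed unadjusted by Pearson. With the neuronal markers r had a median of -0.449 and ran from -0.888 (Tpp1) to 0.755 (Atp6v1a). Relations with the activated microglial, astrocyte and endothelial sums were not tested, because their largest gap between neighbouring mice was above 0.5 of the range. A relation particular to microglial markers is therefore not shown. The same 4 mice lay above the others for the microglial markers and for most of the 11 genes, and a relation within either set of mice was not tested. The part of cell composition in the levels of these genes was not tested.

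**Figure D5:**
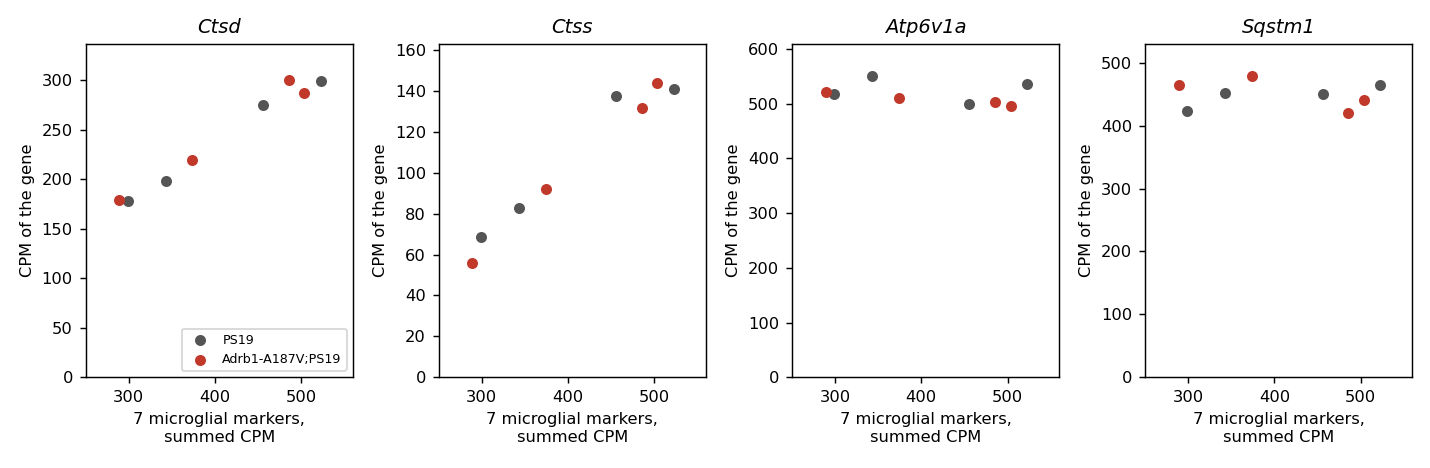
CPM of Ctsd, Ctss, Atp6v1a and Sqstm1 (vertical axes, from 0) against the summed CPM of 7 microglial markers (horizontal axes), with 1 point per mouse coloured by genotype. Ctsd and Ctss follow this sum in both genotypes (r = 0.991 and 0.983, computed on log2 values), whereas Atp6v1a and Sqstm1 stay level.

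A further 115 lysosome and autophagy genes, listed by function, were examined for comparison, and all passed the filter. At an unadjusted p under 0.05 in edgeR 2 were higher and 1 was lower in Adrb1-A187V;PS19 mice, beside the background of 1.42% and 1.37%, and 0 passed after adjustment. Their median log2 fold change was -0.01, with 53 above 0 and 62 below. Tmem175, an ion channel of lysosomes linked to Parkinson's disease, had 26.4, 26.2, 25.9 and 28.2 CPM in PS19 mice and 30.7, 31.3, 30.0 and 32.6 CPM in Adrb1-A187V;PS19 mice (log2 fold change 0.22 ± 0.07, SE, edgeR unadjusted p = 0.00458). Rragc, a GTPase that recruits mTORC1 to lysosomes when amino acids are present, had 61.8, 61.9, 62.1 and 59.3 CPM against 71.3, 62.6, 63.7 and 70.8 CPM (0.13 ± 0.06, unadjusted p = 0.0446). Ulk1, the kinase that initiates autophagy, had 98.8, 93.4, 97.2 and 99.2 CPM against 91.5, 89.1, 88.6 and 90.2 CPM (-0.11 ± 0.05, unadjusted p = 0.0357). For these 3 of the 115 genes the genotypes did not overlap, an arrangement found for 2.02% of all genes tested. The adjusted p-value from edgeR was 0.9996 for each of the 3. With 1 mouse left out, Tmem175 kept an unadjusted p under 0.05 in all 8 fits, Rragc kept it without m661 or m660 alone and Ulk1 without m668 or m671 alone. Among the groups, 0 of 28 other hydrolases and 0 of 14 other V-ATPase genes passed the unadjusted threshold, while 1 of 20 membrane proteins, 1 of 34 autophagy genes and 1 of 19 regulators did.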

How the data were processed

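Cortical RNA was sequenced from 4 PS19 and 4 Adrb1-A187V;PS19 mice, with groups taken from the labels. The authors aligned paired-end reads of 150 nt to GRCm38/mm10 with HISAT2 2.0.5 and deposited raw counts per Ensembl gene from featureCounts 1.5.0-p3. Strand, pair and multiple-mapping settings were not given in the sources used here. DESeq2 1.20.0 is also named in the submitters' processing notes.

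From these counts, genes were kept with edgeR 4.0.16's filterByExpr (17195 genes), normalized with TMM factors and compared with glmQLFit and glmQLFTest in R 4.3.3 (2-sided, no covariates, Benjamini-Hochberg adjustment over all genes tested). An SE is the log2 fold change divided by the square root of F. CPM use TMM-scaled library sizes, and log2 CPM a prior count of 2. The alternatives were DESeq2 1.42.0, limma-voom 3.58.1, DESeq2 size factors, a filter at 1 count in any mouse or at 10 counts in all of them, only protein-coding genes, and each mouse left out. Relations with marker sums used log2 CPM without a prior count. They were computed for lists whose largest gap between neighbouring mice was under 0.5 of the range, both as CPM and as log2 values. The scripts were tested on simulated data.

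The 39 genes, the other lists and the tests were chosen with earlier results of these data known. Full values are given for a fixed list of 22 of the genes, for genes with an unadjusted p under 0.05 and for genes without overlap between genotypes. Other genes are given by ranges, and the 4 promoters were chosen after values were seen. Nothing states that the samples were other than separate mice, and no pair of libraries of the same genotype agreed within sampling noise. Depth was 14653222 to 21223754 counts per mouse.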

Additional observations from a re-analysis of the deposited data

Results flagged for a closer look

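In 2 of the 80 groups examined (each of 39 genes and the mean over them, in 4 mice of 1 genotype) a mouse stood apart by Dixon's criterion for 4 samples, which chance meets in about 1 of 20 groups. For Tfe3 in PS19 mice, m665 had 41.0 CPM and the gap to the nearest mouse was 0.844 of the range. For Psap in Adrb1-A187V;PS19 mice, m671 had 1564 CPM and the gap was 0.905 of the range.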

How the results depend on the processing

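With another tool, filter or normalization 0 of 234 fits of the 39 genes gave an unadjusted p under 0.05, and with 1 mouse left out 3 of 312 did, so that 0 to 1 genes were higher and 0 to 1 lower. The log2 fold changes of 16 genes kept their sign with each mouse left out. Those of 23 did not, with ranges of Tfe3 -0.054 to 0.011, Ctsa -0.032 to 0.089, Ctsb -0.020 to 0.046, Ctsd -0.063 to 0.18, Ctsf -0.061 to 0.030, Ctsl -0.029 to 0.11, Ctss -0.21 to 0.19, Ctsz -0.020 to 0.24, Hexa -0.096 to 0.10, Gaa -0.0074 to 0.14, Gusb -0.022 to 0.10, Man2b1 -0.20 to 0.0046, Npc1 -0.023 to 0.10, Npc2 -0.081 to 0.083, Psap -0.058 to 0.016, Grn -0.13 to 0.15, Scarb2 -0.0052 to 0.059, Ppt1 -0.041 to 0.023, Asah1 -0.063 to 0.051, Atp6ap1 -0.014 to 0.040, Sqstm1 -0.019 to 0.043, Atg5 -0.041 to 0.061 and Atg7 -0.021 to 0.059. With DESeq2 the value of Ppt1 was -0.0010 and that of Atg5 -0.00017, and with limma-voom that of Ppt1 was -0.00017, of Asah1 -0.00056 and of Atg5 -0.0072. The cause was not tested. Of the other 115 genes, 1 was higher with no filter beyond 1 count, with DESeq2 and with limma-voom, and 1 to 2 with 1 mouse left out (1 without m668, m665 or m659). In turn 2 were lower with DESeq2 size factors and with limma-voom, and 0 to 3 with 1 mouse left out (0 without m677 or m661, 2 without m665 and 3 without m671). Tmem175 stayed under an unadjusted p of 0.05 in every alternative, whereas Ulk1 did not with no filter beyond 1 count, nor Rragc with no filter, DESeq2 or limma-voom. The median correlation between the 39 genes was 0.125 centred within genotypes, 0.191 without m665 and 0.0587 without m668. DESeq2 size factors moved CPM by at most 0.207%. No paired analysis was possible because mice are labelled by single numbers that do not recur between genotypes, without a litter. With 4 mice per genotype, a gene as variable as Ctss has an interval of -0.59 to 0.55, so differences within it are not excluded. The smallest difference that would be detected reliably was not computed, and it can lie beyond this interval.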
